A study of Mus musculus with 6 samples.

Results

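The genes of glycolysis and of the hypoxia response were followed in C2C12 myoblasts after cyclic stretch. The set holds 43 of the 22375 rows of the deposited table, picked by gene symbol with a rule that reads a measured value only to choose between 2 Aldoa rows. It comprises 19 glycolytic enzymes, 11 genes of glucose and lactate transport and of flux control, and 13 regulators and targets of hypoxia-inducible factor (HIF). C2C12 is an established mouse myoblast line, and it was compared in 3 unstretched libraries (CON group) and 3 libraries of cells stretched cyclically at 15% elongation for 4 h (4H group). The labels name no genetic change or drug in either group. The labels call the libraries of a group replicate biosamples, and since no source says that they came from separate cultures, p-values measure only the spread between these libraries. The value analysed is FPKM, a fragment count scaled by transcript length and sequencing depth, so levels are per length and can be set beside each other between genes. Only RNA was measured here, and no enzyme activity, metabolite, oxygen level or HIF protein enters these values.

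Glycolysis cuts glucose into pyruvate in the cytosol, and lactate dehydrogenase turns pyruvate into lactate when it is not passed to the mitochondria. Most steps are served by isozymes from separate genes, and muscle has its own forms of phosphofructokinase (Pfkm), phosphoglycerate mutase (Pgam2) and enolase (Eno3). HIF is a transcription factor of an oxygen-labile alpha subunit (Hif1a or Epas1) and a stable partner. With oxygen present, prolyl hydroxylases such as those of Egln1 and Egln3 mark the alpha subunit, and the Vhl product then directs it to destruction, so control lies mainly in the protein. Genes of glycolysis and a set of other genes, Vegfa and Adm among them, are well known HIF targets.

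The FPKM of a library summed to between 395790 and 397260 in CON and to between 385146 and 387516 in 4H. On the log2(FPKM + 0.5) scale the correlation across genes was 0.9915 to 0.9928 within a group and 0.9666 to 0.9695 between the groups. FPKM does not hold depth, and the relative depth read from very low genes differed by at most 1.77% between libraries. Myoblast markers were expressed in every library, with a summed level of 197 to 205 FPKM in CON and 274 to 289 FPKM in 4H, and 6 of the 8 rose while 1, Myf5, fell. Of 10 markers of differentiated muscle, 8 were under a mean of 0.5 FPKM, among them Myog, Myh3, Ckm and Mb. The summed level of the 10 was 2.94 to 3.39 FPKM in CON and 6.65 to 7.77 FPKM in 4H. Most of this sum was Actn3 (mean 2.18 FPKM in CON and 6.02 FPKM in 4H) and Mymk (0.525 and 1.01 FPKM), which both rose. Myog (0.217 and 0.0265 FPKM) and Myh1 (0.0531 and 0 FPKM) were lower in each 4H library, though under a mean of 0.5 FPKM. Of 10 markers of other cell types, 8 were under that level and Ptprc and Epcam were listed at 0 in all 6 libraries, while Cd68 and Tubb3 rose and took the sum from 22.5 to 24.8 FPKM in CON to between 48.8 and 55.3 FPKM in 4H. The part of these marker differences in the results given here was not tested. In RNA from whole cultures, a change in the share of cells that express a gene and a change in RNA per cell cannot be told apart.

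Of 18 tested glycolytic enzyme genes 11 rose after stretch, all by less than a log2 fold change of 1. Of the 43 genes, 40 reached the mean of 0.5 FPKM needed for testing, and 22 rose, 3 fell and 15 did not pass an adjusted p of 0.05. Over all 11593 genes tested, 46.7% were called in either direction, 22.6% higher and 24.1% lower. The median log2 fold change of the 40 genes was 0.25, beside -0.01 over all genes tested. The enzymes gave these 11 rises and 1 fall, with a median of 0.19. The 11 became 9 with the replicate block or without a filter, 8 with eBayes without a trend, 8 to 11 with single libraries left out (8 without CON replicate 1) and 3 after division by Gapdh. The 10 tested genes of transport and control gave 7 rises and 1 fall, with a median of 0.30. The 12 tested HIF regulators and targets gave 4 rises and 1 fall, with a median of 0.18. By the libraries alone, 24 of the 40 genes were higher in each 4H library than in each CON library and 4 were lower, beside 27.5% and 29.2% of all tested genes. Errors of log2 fold changes are standard errors throughout. Only Pdk4, which rose, and Ndrg1, which fell, also passed an absolute log2 fold change of 1 and so were differentially expressed, as were 2.61% of all tested genes upward and 1.28% downward.

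**Figure D1:**
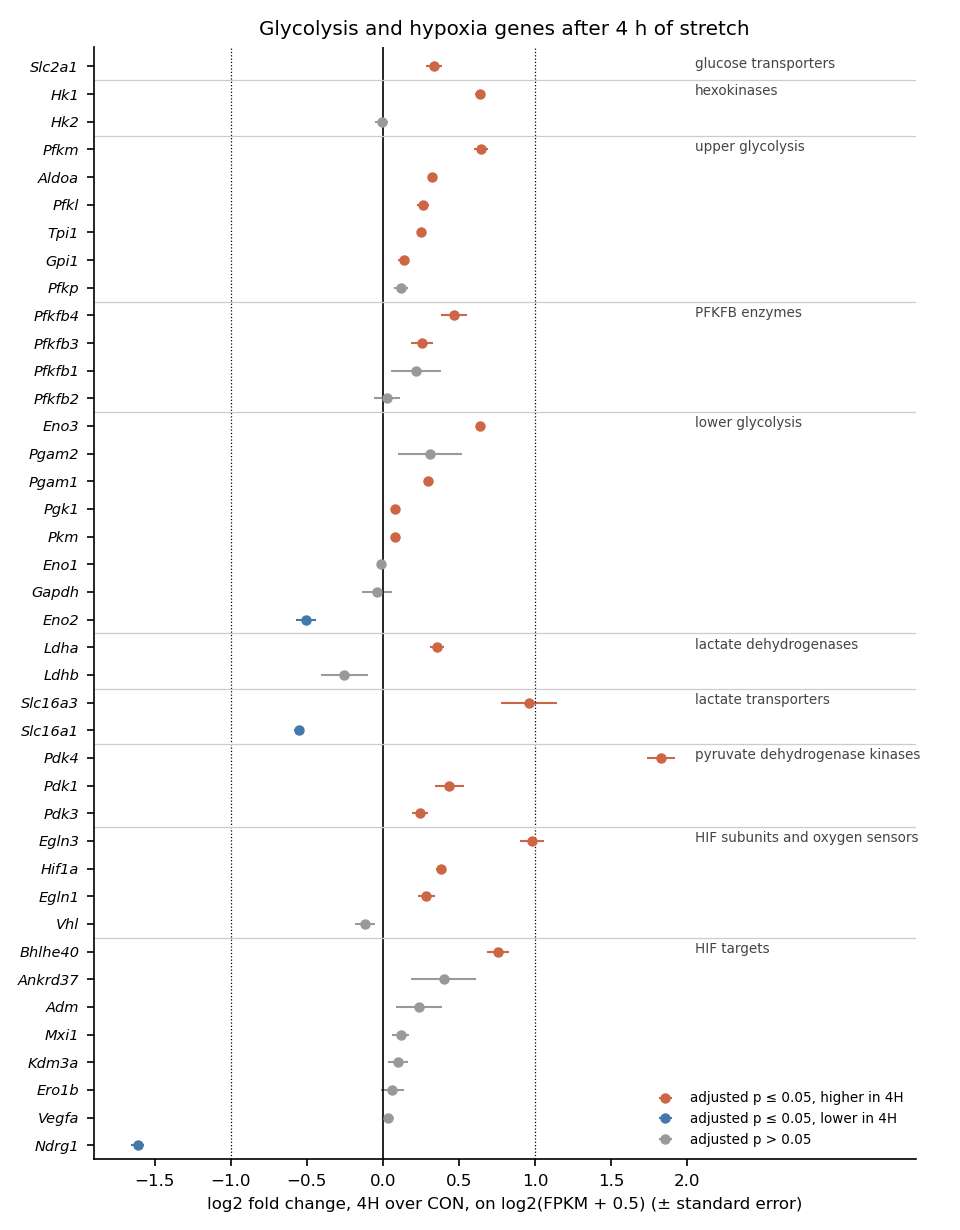
Log2 fold change of 4H over CON on log2(FPKM + 0.5) for the 40 tested genes, ordered by role, with points for estimates, horizontal bars for standard errors (n = 3 libraries per group) and dotted lines at 1 and -1. Orange points (22) rose, blue points (3) fell and grey points (15) did not pass an adjusted p of 0.05, and Pdk4 at 1.83 and Ndrg1 at -1.61 lie outside the dotted lines.

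The DNA upstream of these genes holds the letters that HIF is known to bind, ACGTG or GCGTG, in several of them. RefSeq windows of 300 bases, from 250 before to 50 after each annotated start in assembly GRCm38.p6, were found for 39 of the 43 genes. The letters ACGTG on either strand stood in a window of 22 of these 39 genes, which is 56.4%, beside 21.8% of all 27025 genes with a window and 29.8% of the 8952 tested genes with one. Counted over windows, since a gene can have several, the shares were 43.5% of 62 windows, 19.6% of all 32851 and 25.7% of the 11465 windows of tested genes. The share was 52.6% of the 19 enzymes, 60.0% of the 10 transport and control genes and 60.0% of the 10 HIF regulators and targets with a window. By outcome, ACGTG was found for 14 of 21 genes that rose, 1 of 2 that fell and 6 of 15 that were not called. The letters GCGTG stood in a window of 66.7% of the 39 genes, beside 35.2% of all genes and 57.5% of those tested, and in 51.6% of their windows, beside 51.4% of the windows of tested genes. By outcome GCGTG was found for 13 of 21 genes that rose, 1 of 2 that fell and 11 of 15 that were not called, so the split by outcome ran in opposite directions for the 2 motifs. The palindrome CACGTG, which holds ACGTG on both strands and is also the letters of the E-box that other factors bind, was found for 15.4% of the 39 genes, 8.09% of all genes and 11.9% of those tested, and in 9.68% of the windows of the set, beside 10.0% of the windows of tested genes. A match is a description of the letters and not a measured site. The set was picked to hold known HIF targets, so its shares beside those of all genes are no independent result.

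The stretches that follow carry these letters in capitals, written 5′ to 3′ on the strand of the gene, with 15 bases on each side of the outermost match (fewer after the last match of Slc16a3, where the start of the gene is reached), and CACGT and CACGC are the letters read from the other strand. Their coordinates are in GRCm38.p6. They were chosen to set genes of different response side by side. Ldha (chr7:46845644-46845789, plus strand), Slc16a3 (chr11:120949025-120949066, plus strand) and Egln3 (chr12:54204084-54204118, minus strand) rose, Pgk1 (chrX:106186935-106186988, plus strand) by little, Slc16a1 (chr3:104638449-104638549, plus strand) fell, and Pdk4 (chr6:5496330-5496364, minus strand) had the largest rise. All lie within the 250 bases before a RefSeq start of the gene. Ldha has a second window in RefSeq, not printed, with 0 ACGTG and 1 GCGTG in its 250 bases.
Ldha: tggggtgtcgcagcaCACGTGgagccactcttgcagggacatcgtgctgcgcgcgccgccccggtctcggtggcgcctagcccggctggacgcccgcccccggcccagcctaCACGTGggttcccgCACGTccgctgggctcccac
Pgk1: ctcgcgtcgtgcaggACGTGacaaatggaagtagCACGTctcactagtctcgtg
Slc16a3: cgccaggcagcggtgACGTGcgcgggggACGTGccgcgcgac
Slc16a1: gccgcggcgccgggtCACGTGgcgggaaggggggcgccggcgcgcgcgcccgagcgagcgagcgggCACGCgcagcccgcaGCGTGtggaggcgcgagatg
Egln3: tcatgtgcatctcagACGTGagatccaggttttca
Pdk4: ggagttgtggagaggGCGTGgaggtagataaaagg
The 250 bases of the printed windows held 5 ACGTG matches on the 2 strands for Ldha, where both palindromes count on each strand. Pgk1 and Slc16a3 had 2 each, at separate places, and Slc16a1 had 2, both from 1 palindrome. Egln3 had 1 and Pdk4 had 0. GCGTG matches numbered 2 for Slc16a1, 1 for Pdk4 and 0 for the other printed windows. Pgk1 with 2 matches and a log2 fold change of 0.08 stood beside Slc16a3 with 2 and 0.96. The printed genes were chosen by their response, and a relation of match number to fold change was not tested.

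Glucose enters the cell through GLUT transporters, and the main one here rose. Slc2a1, which encodes GLUT1, was at 60.0, 60.6 and 53.4 FPKM in the CON libraries, while the stretched libraries held 76.1, 72.7 and 70.8 FPKM. The groups did not overlap, and the log2 fold change was 0.33 ± 0.05 (SE, adjusted p = 0.00128). Slc2a3, which encodes GLUT3, was too low to be tested, at 0.0295 to 0.0737 FPKM in CON and 0.131 to 0.194 FPKM in 4H. Slc2a1 thus held over 99.7% of the summed FPKM of the pair in each library.

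Hexokinase, which traps glucose as glucose 6-phosphate, changed in one isozyme and not detectably in the other. Hk1 was at 45.4, 45.3 and 44.9 FPKM in CON and at 72.2, 69.0 and 70.4 FPKM in 4H. Its libraries were tight within each group and far apart between them, with a log2 fold change of 0.63 ± 0.03 (SE, adjusted p = 2.00e-06). Hk2, the inducible form and a known HIF target, was at 24.1, 23.5 and 25.0 FPKM in CON and at 24.4, 23.6 and 24.1 FPKM in 4H. These groups overlapped, with a log2 fold change of -0.01 ± 0.04 (SE, adjusted p = 0.883). Hk1 therefore made up 65.2% ± 0.83 of hexokinase FPKM in CON and 74.6% ± 0.14 in 4H (SD, n = 3 each). The 2 groups did not overlap in this share, and the exact permutation test over libraries gave p = 0.1, the smallest that 3 against 3 allows.

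In upper glycolysis, from glucose 6-phosphate to the triose phosphates, 5 of 6 tested genes rose, with a median log2 fold change of 0.26. Pfkm, the muscle subunit of phosphofructokinase, was at 16.0, 16.6 and 16.0 FPKM in CON and at 26.8, 25.2 and 24.8 FPKM in 4H. All 4H libraries lay above all CON libraries, and the log2 fold change of 0.64 ± 0.05 (SE, adjusted p = 1.49e-05) was within its error of those of Hk1 and Eno3. The liver subunit gene Pfkl rose by 0.26 ± 0.04 (adjusted p = 9.80e-04), from 19.3 ± 0.21 to 23.3 ± 0.56 FPKM (SD). The platelet subunit gene Pfkp, the most abundant of the family, had a log2 fold change of 0.12 ± 0.05 and did not pass (adjusted p = 0.0642), though it passed as TPM (adjusted p = 0.0275) and without 4H replicate 3 (adjusted p = 0.0244). The share of Pfkm in the family's FPKM went from 26.1% ± 0.064 in CON to 32.9% ± 0.58 in 4H, without overlap (SD, exact permutation p = 0.1, n = 3 each).

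Aldolase splits fructose 1,6-bisphosphate, and Aldoa, its muscle and housekeeping form, was at 348, 340 and 347 FPKM in CON and at 434, 432 and 432 FPKM in 4H. The 3 4H libraries were almost the same, and the log2 fold change was 0.32 ± 0.02 (SE, adjusted p = 1.40e-05). Tpi1, which interconverts the triose phosphates, was at 263, 262 and 262 FPKM in CON and at 303, 316 and 317 FPKM in 4H. It rose by 0.25 ± 0.03 (SE, adjusted p = 1.44e-04). Gpi1, glucose phosphate isomerase, rose by 0.14 ± 0.04 (adjusted p = 0.0146), a call that was lost without CON replicate 1 (adjusted p = 0.0511), with eBayes without a trend (0.0529) and after division by Gapdh (0.545). Aldoc was not tested, at a mean of 0.158 FPKM in CON and 0.166 FPKM in 4H.

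The PFKFB enzymes make and break fructose 2,6-bisphosphate, the strongest activator of phosphofructokinase, and 2 of the 4 genes rose. Pfkfb4 was at 5.19, 6.07 and 6.48 FPKM in CON and at 8.75, 8.17 and 8.13 FPKM in 4H. The groups were apart, with a log2 fold change of 0.47 ± 0.09 (SE, adjusted p = 0.0026). Pfkfb2, the most abundant of the 4 in CON by mean but below Pfkfb4 in each 4H library, was at 7.84, 6.77 and 6.65 FPKM in CON and at 7.64, 7.31 and 6.70 FPKM in 4H, with overlap and a log2 fold change of 0.03 ± 0.08 (adjusted p = 0.821). Pfkfb3, the form with the highest kinase over phosphatase activity and a known HIF target, rose by 0.26 ± 0.07 (adjusted p = 0.0217). That call was lost without any one library but 4H replicate 3 (adjusted p = 0.0504 to 0.0728). Pfkfb1 had a log2 fold change of 0.22 ± 0.16 (adjusted p = 0.309).

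In lower glycolysis, from glyceraldehyde 3-phosphate to pyruvate, the genes parted. Of 8 tested genes 4 rose, 1 fell and 3 were not called, and the median log2 fold change was 0.08. Eno3, the muscle form of enolase, was at 231, 228 and 232 FPKM in CON and at 349, 356 and 371 FPKM in 4H. Each 4H library was far above each CON library, and the log2 fold change was 0.64 ± 0.03 (SE, adjusted p = 1.32e-06). Eno1, the ubiquitous form and a known HIF target, was at 701, 685 and 724 FPKM in CON and at 695, 694 and 701 FPKM in 4H. The groups overlapped, with a log2 fold change of -0.01 ± 0.03 (SE, adjusted p = 0.710), and after quantile normalization it was called higher at 0.21 (adjusted p = 1.13e-04). Eno2, the neuronal form, fell from 9.93 ± 0.59 to 6.85 ± 0.17 FPKM (SD), a log2 fold change of -0.50 ± 0.06 (adjusted p = 3.41e-04).

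The enolase shares thus moved between 2 abundant forms. Eno3 held 24.4% ± 0.33 of enolase FPKM in CON and 33.8% ± 0.59 in 4H, and Eno1 held 74.5% ± 0.37 and 65.6% ± 0.57 (SD, n = 3 each, exact permutation p = 0.1 for each, no overlap). Eno1 shares 23.0% of its 75-base stretches with other genes, and Eno1b, the 1 of these genes with a row in the table, was at 278 ± 5.6 FPKM in CON and 275 ± 1.5 FPKM in 4H. Eno1 and Eno1b together were at 981 ± 22 FPKM in CON and 972 ± 5.1 FPKM in 4H, with overlap (SD, exact permutation p = 0.6, n = 3 each).

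Pkm, which encodes pyruvate kinase M and was the most abundant of the 43 genes, was at 1492, 1469 and 1501 FPKM in CON and at 1544, 1586 and 1591 FPKM in 4H. The groups were apart by little, with a log2 fold change of 0.08 ± 0.02 (SE, adjusted p = 0.0240), which turned to -0.12 after quantile normalization. Pgk1, which makes the first ATP of the pathway and is a classical HIF target, rose by as little, from 450 ± 10 to 476 ± 2.0 FPKM (SD, log2 fold change 0.08 ± 0.03, adjusted p = 0.0287). The calls of both genes were lost in several alternatives, the replicate block included (adjusted p = 0.072 for Pkm and 0.0649 for Pgk1). For Pgk1 the call was lost without any one library but CON replicate 3 (adjusted p = 0.0616 to 0.0892). For Pkm it was lost without CON replicate 1 or 2 or 4H replicate 2 or 3 (adjusted p = 0.0517 to 0.0777). Pgam1 rose from 250 ± 3.8 to 307 ± 6.1 FPKM (SD), a log2 fold change of 0.29 ± 0.03 (adjusted p = 5.64e-05). Pgam2, the muscle form, was at most at 1.09 FPKM in any library, with a log2 fold change of 0.31 ± 0.21 (SE, adjusted p = 0.264).

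Gapdh was singled out after its values were seen, since the study used it as the reference gene of its RT-qPCR. It was at 22.4, 25.3 and 25.4 FPKM in CON and at 22.3, 21.3 and 27.9 FPKM in 4H. The groups overlapped, with a log2 fold change of -0.04 ± 0.10 (SE, adjusted p = 0.775). Its level lay far below those of its neighbours in the pathway, with Pgk1 at 18.5 times and Pkm at 61.2 times its level on average in CON. In the mouse annotation GENCODE M21, 22.6% of its 75-base stretches are also found in 118 other genes, 3 of which have a row in the table, so its FPKM can depend on how the authors' counting treated such reads. Pgk1 (52.8%), Pgam1 (34.9%), Eno1 (23.0%), Pkm (17.8%) and Ldhb (12.6%) also share 10% or more. Without these 6 enzymes, 8 of 12 rose and 1 fell, with a median log2 fold change of 0.29, and among the 6 themselves 3 rose, with a median of 0.03.

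Summed over the isozymes of each step, the mean mRNA level was higher in 4H at each step but GAPDH, and 3 libraries against 3 cannot pass 0.05 in the exact test. The ratio of 4H to CON was 1.36 for hexokinase, 1.10 for glucose phosphate isomerase, 1.25 for phosphofructokinase, 1.25 for aldolase and 1.19 for triose phosphate isomerase. Below the triose phosphates it was 0.978 for GAPDH, 1.06 for phosphoglycerate kinase, 1.23 for phosphoglycerate mutase, 1.13 for enolase and 1.06 for pyruvate kinase, and for lactate dehydrogenase it was 1.28. The 4H libraries lay above the CON libraries at each step but GAPDH, where they overlapped (exact permutation p = 0.8). At each of the other steps the exact permutation p was 0.1. All 19 enzymes together summed to 4380 ± 58 FPKM in CON and 4961 ± 81 FPKM in 4H (SD, n = 3 each), or 1.10% ± 0.013 and 1.28% ± 0.018 of all FPKM.

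**Figure D2:**
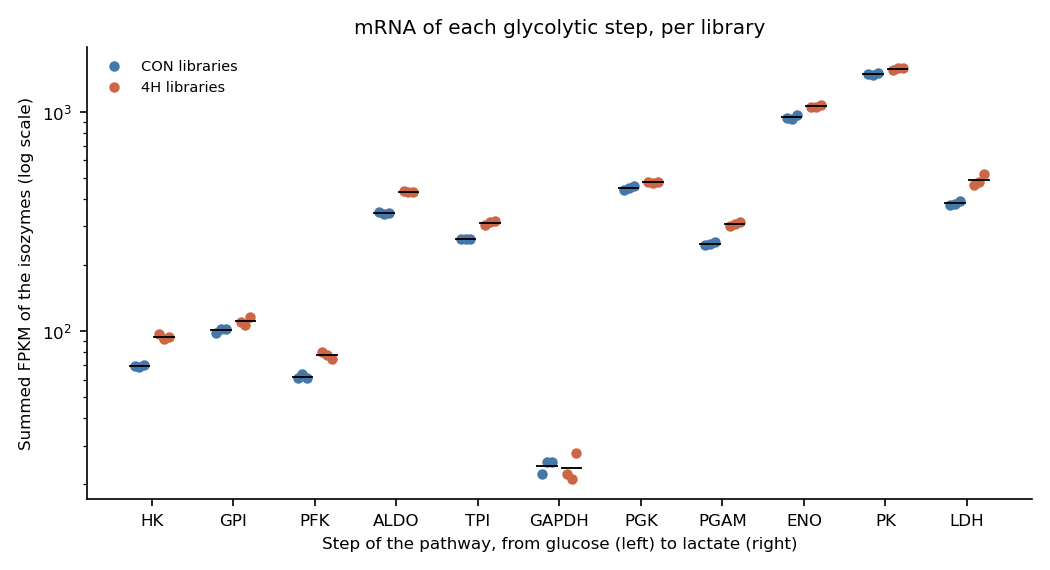
Summed FPKM of the isozymes of each glycolytic step on a log axis, with 1 point per library, CON in blue and 4H in orange, and a bar at the mean of each group (n = 3). The orange points lie above the blue ones at every step except GAPDH, which is also the step with the lowest sum.

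Lactate dehydrogenase, which turns pyruvate into lactate and back, rose in its main subunit. Ldha was at 372, 377 and 390 FPKM in CON and at 462, 477 and 520 FPKM in 4H. The 4H libraries were spread more widely but all lay above CON, with a log2 fold change of 0.36 ± 0.04 (SE, adjusted p = 3.39e-04). Ldhb, whose subunit favours the reverse reaction, was at 3.65, 4.49 and 3.94 FPKM in CON and at 3.69, 3.90 and 2.45 FPKM in 4H, with overlap and a log2 fold change of -0.25 ± 0.16 (SE, adjusted p = 0.222). Ldha made up 98.95% ± 0.11 of the FPKM of the pair in CON and 99.31% ± 0.19 in 4H (SD).

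The 2 lactate transporters moved in opposite directions. Slc16a1 encodes MCT1, a high-affinity carrier of lactate and pyruvate, and it was at 61.9, 60.6 and 59.6 FPKM in CON and at 41.4, 41.1 and 41.2 FPKM in 4H. The 4H libraries lay close together and below each CON library, with a log2 fold change of -0.55 ± 0.03 (SE, adjusted p = 3.99e-06). Slc16a3 encodes MCT4, a low-affinity carrier that exports lactate from glycolytic muscle and a known HIF target, and it was at 3.63, 5.96 and 3.29 FPKM in CON and at 8.60, 8.00 and 9.12 FPKM in 4H. CON replicate 2 stood above the other CON libraries but below each 4H library, and the log2 fold change was 0.96 ± 0.18 (SE, adjusted p = 0.00307), or 1.196 without CON replicate 2. Slc16a1 remained the more abundant of the pair, while the share of Slc16a3 went from 6.57% ± 2.1 to 17.2% ± 0.91 (SD, n = 3 each, exact permutation p = 0.1). The ratio of Slc16a3 to Slc16a1 was on average 2.94 times as high in 4H as in CON.

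Pyruvate dehydrogenase kinases inhibit the mitochondrial complex that turns pyruvate into acetyl-CoA, and the 3 of the set rose. The fourth kinase gene, Pdk2, is no member and was not called (1.68 ± 0.26 FPKM in CON and 1.41 ± 0.44 FPKM in 4H, SD, log2 fold change -0.21 ± 0.19, adjusted p = 0.409). Pdk4, the kinase known to follow fasting and fatty acid supply in muscle (GRCm38 chr6:5483351-5496309, minus strand), was at 1.35, 1.53 and 1.67 FPKM in CON and at 6.98, 6.31 and 6.67 FPKM in 4H. No library of one group came near the other, and the log2 fold change of 1.83 ± 0.09 (SE, adjusted p = 2.11e-06) was the largest of the set, with a ratio of mean FPKM of 4.39. Pdk1, a classical HIF target, was at 3.38, 4.16 and 3.35 FPKM in CON and at 5.16, 4.80 and 5.26 FPKM in 4H, and rose by 0.44 ± 0.10 (SE, adjusted p = 0.00631). Pdk3 was at 12.99, 13.06 and 13.74 FPKM in CON and at 15.0, 16.3 and 16.1 FPKM in 4H, and rose by 0.25 ± 0.05 (SE, adjusted p = 0.00578). Pdk3 was the most abundant of the 3 in both groups, while the share of Pdk4 in their sum, without Pdk2, went from 8.22% ± 0.65 to 24.2% ± 1.4 (SD, n = 3 each, exact permutation p = 0.1).

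**Figure D3:**
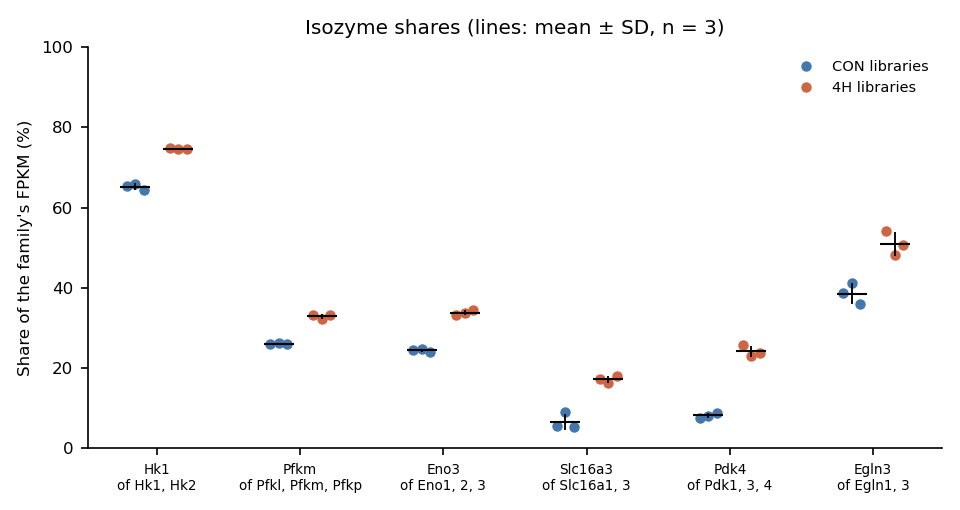
Share of 1 member in the summed FPKM of its family, in percent, with 1 point per library, CON in blue and 4H in orange, and black lines for the mean ± SD of each group (n = 3). In each of the 6 families drawn the groups are apart, from 65.2% to 74.6% for Hk1 at the left to 38.6% to 50.9% for Egln3 at the right.

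Among the HIF subunits and oxygen sensors of the set, 3 of 4 tested genes rose, beside 22.6% of all tested genes. Hif1a was at 71.9, 76.0 and 71.9 FPKM in CON and at 95.2, 97.7 and 94.0 FPKM in 4H, a log2 fold change of 0.38 ± 0.03 (SE, adjusted p = 5.25e-05). Egln3, which encodes the prolyl hydroxylase PHD3 and is itself a HIF target, was at 7.93, 8.99 and 7.33 FPKM in CON and at 17.3, 15.6 and 16.3 FPKM in 4H. It was the largest rise among the HIF regulators and targets, at 0.98 ± 0.08 (SE, adjusted p = 2.94e-05). Slc16a3 and Egln3 lay just under a log2 fold change of 1, and both passed it with a pseudocount of 0.1, as TPM, and without CON replicate 2 or 4H replicate 2. Egln1, which encodes PHD2, was at 12.6, 12.8 and 13.1 FPKM in CON and at 14.7, 16.8 and 15.9 FPKM in 4H, a log2 fold change of 0.29 ± 0.06 (SE, adjusted p = 0.00448). Egln3 held 38.6% ± 2.6 of the summed FPKM of the pair in CON and 50.9% ± 3.0 in 4H (SD, n = 3 each, exact permutation p = 0.1). In 4H this share was 54.0%, 48.1% and 50.6%, so Egln3 exceeded Egln1 in 2 of the 3 libraries.

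The other alpha subunit, Epas1, encodes HIF2A and was not tested. It was listed at 0 in CON replicates 2 and 3 and at 0.0105 FPKM in CON replicate 1, and lay between 0.0749 and 0.0908 FPKM in 4H. Vhl had a log2 fold change of -0.12 ± 0.07 (adjusted p = 0.170), with all 4H libraries below the CON libraries.

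Of the 8 genes grouped as HIF targets in the set, 1 rose, 1 fell and 6 were not called. Ero1b is counted among them, while its paralogue Ero1a, the hypoxia-induced oxidase, lies outside the set and fell (log2 fold change -1.37 ± 0.04). Ndrg1, which is induced by hypoxia and by differentiation in many cells (GRCm38 chr15:66929318-66969640, minus strand), was at 101.6, 98.4 and 97.7 FPKM in CON and at 33.6, 32.3 and 30.6 FPKM in 4H. Every 4H library was at about the same low level, and the log2 fold change of -1.61 ± 0.04 (SE, adjusted p = 8.56e-08) was the largest fall of the set, with a ratio of mean FPKM of 0.324. Bhlhe40, a transcription repressor that also follows stress and clock signals, rose from 12.2 ± 0.61 to 21.01 ± 2.1 FPKM (SD), a log2 fold change of 0.76 ± 0.07 (adjusted p = 9.15e-05). Vegfa, which encodes the vascular growth factor and is a widely used readout of HIF, was at 73.5, 75.6 and 70.9 FPKM in CON and at 72.1, 78.2 and 74.9 FPKM in 4H. The groups overlapped, with a log2 fold change of 0.03 ± 0.04 (SE, adjusted p = 0.539). The histone demethylase gene Kdm3a, the oxidoreductase gene Ero1b and the MYC antagonist gene Mxi1 had log2 fold changes of 0.10, 0.06 and 0.12 (adjusted p = 0.272, 0.540 and 0.129). The vasodilator gene Adm at 0.24 and Ankrd37 at 0.40 were at most at 1.196 FPKM in any library and were not called (adjusted p = 0.238 and 0.162).

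**Figure D4:**
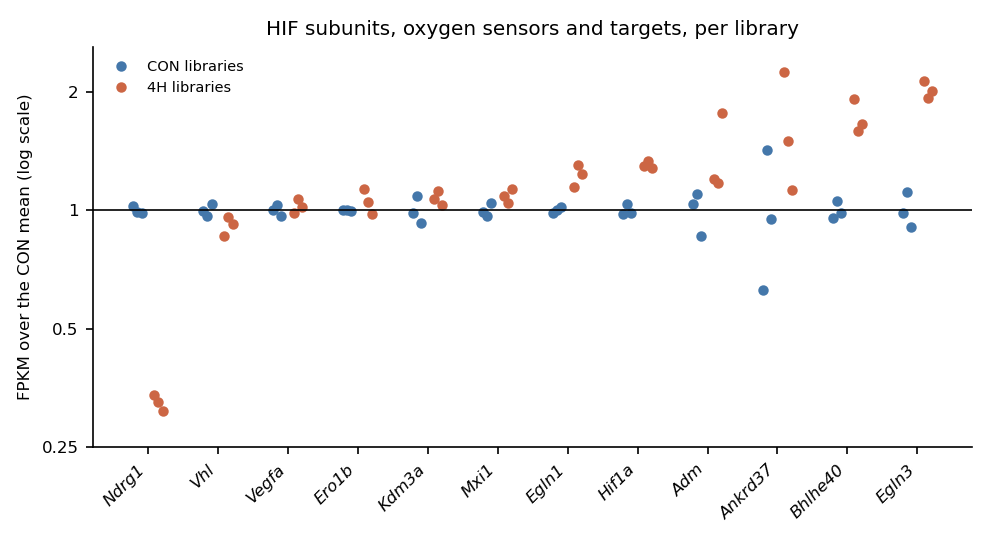
FPKM of each library over the CON mean of the gene, on a log axis, for the 12 tested HIF regulators and targets in order of the ratio of 4H to CON, CON in blue and 4H in orange. Ndrg1 at the left lies at 0.324 of the CON mean, the groups overlap for 4 of the 12 genes, and Bhlhe40 and Egln3 at the right lie at 1.72 and 2.02.

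Set side by side, the enzymes and the HIF genes had medians close to each other and ranges of unlike width. The enzymes lay between -0.50 and 0.64 on the log2 scale, none was differentially expressed, and 11 of 18 rose. The HIF regulators and targets lay between -1.61 and 0.98, 1 was differentially expressed, and 4 of 12 rose, 3 of which encode the subunit or hydroxylases rather than products outside the oxygen-sensing loop. As a log2 difference from the CON mean, the median enzyme was at 0.15, 0.21 and 0.21 in the 3 4H libraries, and the median HIF gene at 0.15, 0.14 and 0.14. The medians thus differed by less than either moved between settings of the analysis, and the contrast between the 2 lists was not tested.

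Genes of the same pathways outside the set gave the surrounding picture. Of 31 tested HIF targets outside the set, 13 rose and 7 fell, with a median log2 fold change of 0.18. Of these, 7 were differentially expressed, 5 of them upward. Over all tested genes 22.6% rose and 24.1% fell, and 2.61% were differentially expressed upward and 1.28% downward. Angptl4, an inhibitor of lipoprotein lipase that also answers to fatty acids, was at 8.19, 5.65 and 6.17 FPKM in CON and at 31.2, 30.0 and 48.9 FPKM in 4H, a log2 fold change of 2.36 ± 0.19 (SE, adjusted p = 3.22e-05). Stc1, which encodes the secreted glycoprotein stanniocalcin 1, rose by 1.94 ± 0.11 (adjusted p = 4.13e-06), while its relative Stc2 fell, with a log2 fold change of -1.59 ± 0.10 (SE, adjusted p = 7.15e-06). Ero1a, the hypoxia-induced oxidase of the endoplasmic reticulum and paralogue of Ero1b, fell from 65.9 ± 0.84 to 25.2 ± 1.2 FPKM (SD), a log2 fold change of -1.37 ± 0.04 (adjusted p = 1.88e-07). Of 13 other regulators of the HIF pathway, 1 (Cited2) rose and 3 (Egln2, Elob and Siah1a) fell, with a median of -0.02. The share called is below the 46.7% of all tested genes.

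Branches off glycolysis were read against the 22.6% of all tested genes called higher and the 24.1% called lower. In the pentose phosphate pathway, which draws on glucose 6-phosphate for NADPH and ribose, 0 of 8 genes rose and 6 fell, with a median log2 fold change of -0.27 (limma). Among 11 genes for the entry of pyruvate into mitochondria and into acetyl-CoA, which hold the carrier, the pyruvate dehydrogenase subunits, the phosphatases that oppose the Pdk kinases and Pdk2 itself, 0 rose and 4 fell by limma, with a median of -0.16. The 4 called of 11 make a smaller share than the 46.7% of all tested genes, and Pdk1, Pdk3 and Pdk4, which rose, are counted in the set and not in this list. At an unadjusted p under 0.05, 0 and 1 genes of these lists were higher. Of 8 tested genes of glycogen and gluconeogenesis, 2 rose and 2 fell. Pck2, the mitochondrial enzyme that makes phosphoenolpyruvate from oxaloacetate, was at 88.3, 91.1 and 94.1 FPKM in CON and at 22.1, 24.7 and 23.7 FPKM in 4H, a log2 fold change of -1.93 ± 0.05 (SE, adjusted p = 8.01e-08). Of 7 tested glycolytic isozymes and related enzymes outside the set, 2 rose and 1 fell.

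**Figure D5:**
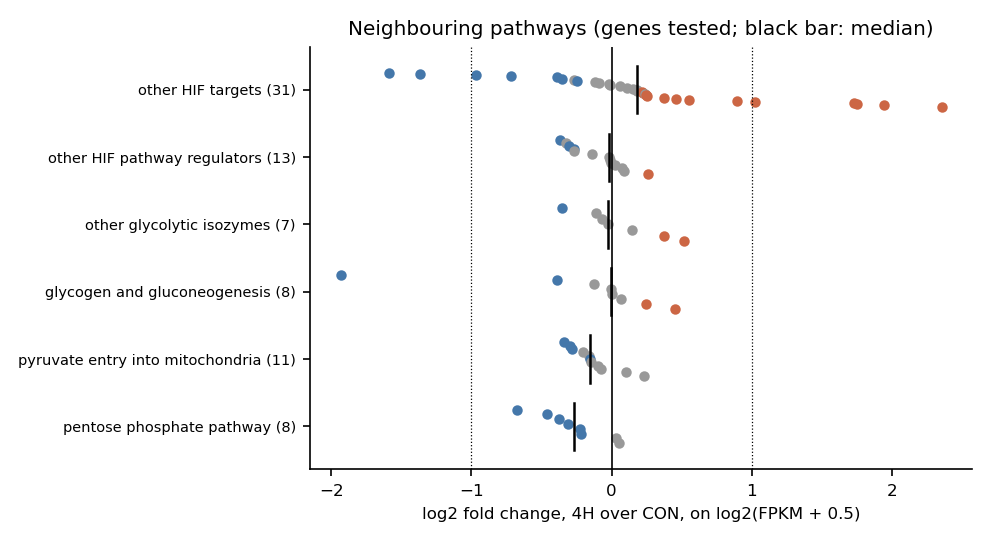
Log2 fold change of 4H over CON on log2(FPKM + 0.5) for the tested genes of 6 lists outside the set, with 1 point per gene, orange where it rose, blue where it fell and grey where it was not called, a black bar at the median of each list and dotted lines at 1 and -1. The medians run from 0.18 for the other HIF targets to -0.27 for the pentose phosphate pathway, and Gys1 stands in 2 lists.

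Division of each library by its Gapdh value left 13 of the 25 calls in the set and 4 of the 12 calls among enzymes, and over all genes 2082 were called in place of 5409, with 65.1% of calls upward in place of 48.4%. GENCODE M21 places another gene on the other strand over 9 of the 25 called genes and on the same strand over 3, and whether the authors' counting used the strand is not given in the sources used here.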

How the data were processed

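RNA-seq of 6 C2C12 libraries was analysed from the 1 table that the authors deposited. Its values are FPKM per gene and library, and per the labels the libraries were made strand-specific from poly(A)-selected RNA and sequenced on an Illumina platform. The submitters' processing notes name the build mm 10. For the aligner, the counting tool and the annotation, a name is not given in the sources used here. Each of the 6 value columns matched the title of 1 sample, and 0 columns were left without a sample. The 4H libraries are called replicates 1 to 3 by their biosample numbers. No 2 libraries were identical.

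FPKM is normalized for length and depth, so no count model was used. A limma-trend model (limma 3.58.1, R 4.3.3) was fitted to log2(FPKM + 0.5) for the 11593 genes whose mean reached 0.5 FPKM, and its two-sided p-values were adjusted over all of them by the Benjamini-Hochberg method. A gene rose or fell at an adjusted p of at most 0.05, and counted as differentially expressed if the log2 fold change also reached 1 in size, the thresholds of the study. Fold changes are on the log2(FPKM + 0.5) scale, which understates the change of low genes. The step was tested on simulated data. Shares and sums were compared with a two-sided exact permutation test over libraries. Depth behind each FPKM value is not held in the table, and precision rests on 3 libraries per group.

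Ero1lb was found by its identifier, under the symbol Ero1b, and of 2 Aldoa rows the one with the higher mean was used. The members and lists were chosen with earlier results of these data known, so no p-value over a list is given. Values in every library are printed for differentially expressed members and, in each role group, for the 2 members with the highest mean and the one with the largest change, and outside the set for up to 2 differentially expressed genes per list and direction, or their fold change. Gapdh, Eno1b, Pdk2 and the members given as mean ± SD lie outside this rule. Shared 75-base stretches and overlaps were taken from GENCODE M21 (GRCm38), promoters from RefSeq (GRCm38.p6), and no window was found there for Slc2a3, Epas1, Ndrg1 and Bhlhe40. Tables and tests used pandas 2.3.3, numpy 2.4.6 and SciPy 1.17.1 under Python 3.11.15, and plots matplotlib 3.10.9.

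The alternatives were pseudocounts of 0.1 and 1, no filter and a filter at a mean of 1 FPKM, a replicate block, eBayes without a trend, TPM, median-of-ratios scaling, quantile normalization, division by Gapdh, each library left out in turn and, for shares, a log2 ratio. Enzymes with under 10% shared stretches alone were added after seeing the data.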

Additional observations from a re-analysis of the deposited data

How the results depend on the processing

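Over all alternatives, 599 values of single genes kept their side of the threshold without a reversed call, 34 lost the threshold, 2 gained it and 2 reversed. Among the 599 are 13 values close to 0 of Hk2, Pfkfb2, Gapdh and Eno1, called in neither fit, that changed sign or went to 0. The median of all genes stayed between -0.0251 and 0.0277 on the log2 scale in every setting. The reversals were Eno1 (0.21, called higher) and Pkm (-0.12) under quantile normalization, where 2 enzymes in place of 1 fell. The median log2 fold change of the HIF regulators and targets, 0.18, was 0.21 with a pseudocount of 0.1, 0.14 with 1, 0.21 without a filter, 0.11 with a filter at 1 FPKM, 0.24 as TPM and 0.10 after quantile normalization, and 0.12 to 0.22 with single libraries left out. That of the enzymes, 0.19, was 0.14 without a filter, 0.14 with a filter at 1 FPKM, 0.23 as TPM, 0.23 after division by Gapdh, 0.29 over enzymes with under 10% shared stretches, and 0.13 to 0.20 with single libraries left out. Differentially expressed members went from 2 to 4 with a pseudocount of 0.1 and as TPM, and were 2 to 4 with single libraries left out (4 without CON replicate 2 or without 4H replicate 2), and differentially expressed genes went from 450 to 703 as TPM. As TPM 57.4% of calls were upward. Division by Gapdh left 2082 genes, 13 members (10 higher) and 4 enzymes (3 higher) called, and carries the spread of Gapdh between libraries into each value. Among the values for shares, the sign changes were those of rare forms. The log2 ratio of Slc2a3 to Slc2a1, with the pseudocount of the main fit added to both, changed by -0.0571 from CON to 4H. The share of Slc2a3, taken without a pseudocount, was 0.14 points higher in 4H (0.0868% in CON and 0.227% in 4H). Slc2a3 lay below that pseudocount in every library, so the negative sign rests on the pseudocount and the share itself did not reverse. Aldoc moved by -0.01 points with all libraries. With single libraries left out it moved by -0.0141 to 0.0058 points, 0.0058 being the value without 4H replicate 2.

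The biosample numbers of the labels did not pair the libraries. The correlations of deviations from the group means between libraries of the same number were 0.025, -0.093 and -0.126. The titles call the stretched libraries 4H1, 4H3 and 4H4. By title, C3 (CON replicate 3) goes with 4H3 (4H replicate 2), and their correlation of 0.176 was the highest of all pairs. The replicate block used the biosample numbers. With the replicate block 4964 genes were called in place of 5409, and only Pgk1 and Pkm of the 25 called members lost their call. The cause of these differences was not tested. FPKM limits what can be said of genes under 0.5 FPKM, where a value rests on few reads.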

Other observations

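The table holds a second row with the symbol Aldoa, under the identifier ENSMUSG00000114515. It was at 3.93, 4.68 and 4.47 FPKM in CON and at 1.91, 1.62 and 1.78 FPKM in 4H, and fell with a log2 fold change of -1.10 ± 0.10 (SE, limma, adjusted p = 5.54e-05), while the main Aldoa row rose. The ratio of Aldoa to Gapdh, a housekeeping pair from the same pathway, was 15.5, 13.5 and 13.7 in CON and 19.4, 20.3 and 15.5 in 4H, with overlap between the groups (exact permutation p = 0.2, n = 3 each). The sum of the pentose phosphate genes was 448 to 460 FPKM in CON and 382 to 392 FPKM in 4H, and that of the genes of pyruvate entry 321 to 328 FPKM in CON and 278 to 293 FPKM in 4H.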
